A study of Mus musculus with 6 samples.

Results

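Collagens are the 43 genes followed here: the rows of the count table whose symbol is Col, a number, a and a number, of 24498 genes in the table. A further match, Col17a1, was left out by the rule. They were divided into 11 fibrillar collagens, 9 basement membrane collagens (the type IV chains with types VII, XV and XVIII) and 23 others. A total of 36 had enough reads to be tested, 8, 9 and 19 in that order. The 7 left out (Col2a1, Col9a1, Col11a1, Col22a1, Col24a1, Col26a1 and Col28a1) held 1 to 36 counts over all libraries and at most 0.988 CPM (read counts scaled to the library total) in any library, so counts and medians below describe the tested genes and not the whole family.

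The libraries came from marked cells sorted from the prostates of male mice. In Nkx3.1;EYFP mice, an Nkx3.1-CreER(T2) allele was crossed to the reporter Gt(ROSA)26Sortm1(EYFP)Cos of a B6.129X1 strain, so that the tamoxifen-inducible Cre recombinase switched on a yellow fluorescent protein in cells using Nkx3.1 and in their descendants. In Clu;tdTomato mice, a Clu-CreER(T2) allele was crossed to Gt(ROSA)26Sortm14(CAG-tdTomato)Hze of a B6.Cg strain, a red reporter. All groups thus carried a Cre allele and a reporter. Nkx3.1 is a homeobox factor of prostate luminal cells and Clu encodes the secreted chaperone clusterin. The 3 groups of 2 libraries were marked Nkx3.1;EYFP cells from intact mice (Nkx intact), the same from mice castrated 8 weeks after birth, with tissue taken after another 4 weeks (Nkx castrate), and marked Clu;tdTomato cells from intact mice (Clu intact). Both intact groups were on the same schedule as the castrate group. The labels give no inducing agent, no time of induction and no sorting batch. The 2 lines differ in Cre driver and reporter at once, so that driver, reporter and marked population cannot be told apart between Nkx and Clu. The labels do not say whether libraries of a group are separate animals, so the p-values reflect only how far the libraries scatter, which can be technical.

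Collagens are built from alpha chains that wind into triple helices, each chain from its own gene. Fibrillar collagens form the rope-like fibres of connective tissue and are made mainly by fibroblasts and other stromal cells, whereas type IV collagen forms the sheet-like network of the basement membrane under every epithelium, to which epithelial cells contribute. In the prostate the basement membrane separates basal and luminal epithelium from a stroma of smooth muscle and fibroblasts.

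Depth lay between 10220118 and 17412874 counts per library, and 1 count was worth 0.0561 to 0.0988 CPM after TMM scaling. Values of a group are given in the order of its replicates 1 and 2, and 3 pairs without names follow the order Nkx intact, Nkx castrate and Clu intact. The 2 Nkx castrate libraries stood apart from each other. Of the 36 tested collagens, 34 were higher in Nkx castrate 1 than in Nkx castrate 2, with a median ratio of 4.55, against 0.972 over all tested genes and against 1.05 and 1.02 between the libraries of Nkx intact and Clu intact for the collagens. Nkx castrate 2 was the lowest of the 6 libraries in 8 of 8 fibrillar, 9 of 9 basement membrane and 11 of 19 other collagens, against 18.0% of all tested genes. Calls that use Nkx castrate are therefore also given with each of its libraries left out.

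Markers of other cell types moved with the libraries. The sums of the 12 smooth muscle and pericyte markers were 278 and 241 CPM in intact Nkx cells, 1944 and 622 in castrate Nkx cells, and 462 and 257 in Clu cells. Those of the 12 endothelial markers were 70.0 and 50.9 CPM in intact Nkx cells, 471 and 65.4 in castrate Nkx cells, and 1100 and 447 in Clu cells. For the 10 fibroblast markers the sums were 1099 and 973 CPM, 1328 and 239, and 819 and 907, in the same order. Most of that sum was Gsn and Dcn, and without them (a choice made after the values were seen) the sums were 68.8 and 42.5, 343 and 41.1, and 68.1 and 53.1 CPM. Smooth muscle and fibroblast markers were thus highest in Nkx castrate 1 and endothelial ones in Clu intact 1. None of the fibroblast or smooth muscle markers was at 0 in any library, and 1 endothelial marker was at 0 in Nkx intact 2. The 13 luminal epithelial markers summed to 19327 and 23252 CPM in intact Nkx cells, 8884 and 11460 in castrate Nkx cells, and 16836 and 15714 in Clu cells. For the 10 basal ones the sums were 5065 and 5113 CPM, 4890 and 3174, and 3160 and 3253, in the same order. Both epithelial lists were thus detected in all 3 groups. Trp63, the defining transcription factor of basal cells, was at 249 and 238 CPM in intact Nkx cells, 61.5 and 34.7 in castrate Nkx cells, and 13.2 and 24.6 in Clu cells. Not all of the 10 basal markers followed Trp63: Krt15 was at 1079 and 1091, 1259 and 981, and 1086 and 1299 CPM. The part of these cell types in the collagen results was not tested.

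The summed CPM of the classes differed in pattern. Basement membrane collagens summed to 1563 and 1572 CPM in intact Nkx cells, 722 and 265 in castrate Nkx cells, and 762 and 603 in Clu cells, so the means of Nkx intact stood 3.18-fold above Nkx castrate and 2.30-fold above Clu intact. Fibrillar collagens summed to 296 and 251 CPM in intact Nkx cells, 231 and 24.2 in castrate Nkx cells, and 395 and 400 in Clu cells, the highest of the 3 groups. Other collagens summed to 585 and 557, 440 and 111, and 325 and 392 CPM. The share of all counts taken by collagens was 0.242% and 0.236% for Nkx intact, 0.143% and 0.0379% for Nkx castrate, and 0.154% and 0.141% for Clu intact. In these bulk libraries, fewer cells of a type and less RNA per cell cannot be told apart.

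**Figure D1:**
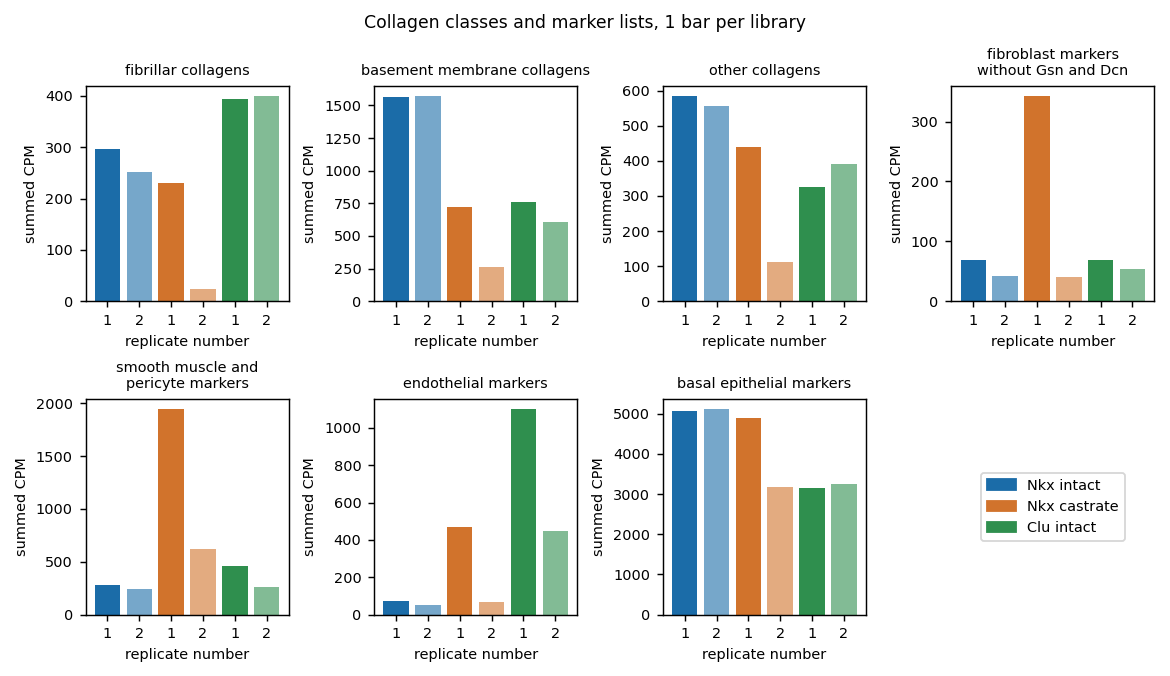
Summed CPM (vertical axes from 0) of the 3 collagen classes and of 4 marker lists, 1 bar per library, with groups by colour and the replicate number below. Basement membrane collagens stand at 1563 and 1572 CPM in Nkx intact and at 762 or less in the other 4 bars. Nkx castrate 2 is lowest for each collagen class. Nkx castrate 1 is highest for the smooth muscle markers and for the fibroblast markers. The fibroblast list is shown without Gsn and Dcn, a choice made after the values were seen.

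Per kilobase of exon, which allows levels of different genes to be set side by side, the leading collagen of both Nkx intact libraries was Col18a1 (85.4 and 88.0 CPM per kb), the type XVIII chain whose end is cleaved to endostatin. Next were Col16a1 (55.2 and 52.5 CPM per kb), a fibril-associated collagen found near basement membranes, and Col4a6 (31.9 and 38.3 CPM per kb), a chain of the epithelial type IV network. In Nkx castrate 1 and Clu intact 1 the leader was Col4a1, at 27.5 and 27.2 CPM per kb, and in Nkx castrate 2 and Clu intact 2 it was Col18a1, at 13.8 and 22.5 CPM per kb. Of the collagen CPM per kb, basement membrane chains took 63.4% and 65.1% for Nkx intact, 51.9% and 65.4% for Nkx castrate, and 53.7% and 45.2% for Clu intact. The fibrillar share was 10.2% and 8.91%, 13.8% and 5.08%, and 22.2% and 24.3% in the same order, highest in both Clu intact libraries.

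The promoters of the 5 collagens that were called lower in Nkx castrate than in Nkx intact are shown. These genes were chosen by that call, so their shared direction is fixed by the choice. Each line is the 250 bases before the gene's start in RefSeq, on the gene's strand, build GRCm38.p6, which is not the build of the counts. Capitals mark CCAAT (the CCAAT box) and GGGCGG (the GC box), or their reverse complements. The regions are chrX:141474077-141474326 (minus strand) for Col4a6, chrX:141475169-141475418 (plus) for Col4a5, chr10:77166531-77166780 (minus) for the upstream start of Col18a1, chr4:130047590-130047839 (plus) for Col16a1 and chr9:108953336-108953585 (plus) for Col7a1.
Col4a6: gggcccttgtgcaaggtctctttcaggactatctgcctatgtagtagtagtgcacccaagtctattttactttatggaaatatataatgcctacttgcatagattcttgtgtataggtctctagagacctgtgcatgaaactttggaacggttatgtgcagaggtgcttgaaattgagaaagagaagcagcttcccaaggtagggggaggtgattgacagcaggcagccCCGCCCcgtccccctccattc
Col4a5: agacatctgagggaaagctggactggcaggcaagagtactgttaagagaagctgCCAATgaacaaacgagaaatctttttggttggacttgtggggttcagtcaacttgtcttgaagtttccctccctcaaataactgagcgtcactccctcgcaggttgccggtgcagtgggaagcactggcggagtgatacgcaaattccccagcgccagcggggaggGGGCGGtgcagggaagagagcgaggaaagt
Col18a1: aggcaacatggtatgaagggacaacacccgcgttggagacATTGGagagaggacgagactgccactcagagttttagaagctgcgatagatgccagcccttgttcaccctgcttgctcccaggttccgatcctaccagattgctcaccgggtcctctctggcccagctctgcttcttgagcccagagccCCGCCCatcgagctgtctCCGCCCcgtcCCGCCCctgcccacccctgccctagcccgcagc
Col16a1: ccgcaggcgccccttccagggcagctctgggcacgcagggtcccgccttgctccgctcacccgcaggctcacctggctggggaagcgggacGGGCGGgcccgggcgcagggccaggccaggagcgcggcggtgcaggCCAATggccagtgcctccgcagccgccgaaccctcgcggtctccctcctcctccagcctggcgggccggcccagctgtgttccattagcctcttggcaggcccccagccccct
Col7a1: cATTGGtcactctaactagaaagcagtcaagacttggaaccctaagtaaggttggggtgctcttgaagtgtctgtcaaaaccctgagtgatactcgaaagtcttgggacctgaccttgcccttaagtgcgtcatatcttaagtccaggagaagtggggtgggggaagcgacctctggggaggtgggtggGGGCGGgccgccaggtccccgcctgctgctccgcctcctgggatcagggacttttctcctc

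Col4a6 and Col4a5 lie head to head, with starts 1343 bp apart, and those of Col4a1 and Col4a2 are 21 bp apart. RefSeq windows matched 34 of the collagens, in 37 windows. On either strand, CCAAT was found in 12 of the 37, against 33.8% of 32851 windows of the same length, and GGGCGG in 22 against 32.7%. TATAAA was found in 4 (12.4% of all windows) and TGTTCT, an androgen receptor half-site, in 2 (16.1%), and neither was in the 5 windows printed. A second start of Col18a1, with the window chr10:77113706-77113955, holds no match to any of the 4. A match is a description of letters and not of a bound site.

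Nkx castrate set against Nkx intact asked how loss of testicular androgen changed the marked cells. No collagen rose and 5 of 36 fell, namely Col18a1, Col4a6, Col4a5, Col7a1 and Col16a1, of which 4 belong to the 9 basement membrane collagens. The share lower was 13.9% of the tested collagens, against 4.59% of all 13846 tested genes (4.02% were called higher, and 8.61% in either direction). The median log2 fold change was -0.35 over the collagens, -1.25 over the basement membrane class, -0.53 over the fibrillar and 0.32 over the others, against 0.05 over all genes. Both castrate libraries lay below both intact ones in 12 of 36 collagens, against 24.6% of all genes. These were 6 of 9 basement membrane, 3 of 8 fibrillar and 3 of 19 other collagens. Both castrate libraries lay above both intact ones in 2 of 36, against 25.4% of all genes. Calls were made by the quasi-likelihood test of edgeR at a p under 0.05 after Benjamini-Hochberg adjustment over all tested genes. At an unadjusted p under 0.05, 1 collagen was higher and 8 lower. The share of all tested genes at an unadjusted p was not counted. The unadjusted counts here and below therefore have no background and cannot be set against the shares of calls. In the same comparison 7 of 12 smooth muscle and pericyte markers and 2 of 10 fibroblast markers rose and 2 of 10 basal markers fell. Of 13 luminal markers, 6 rose and 4 fell. The part of these lists in the collagen results was not tested.

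Col18a1 was at 599 and 618 CPM in intact Nkx cells, 175 and 96.6 in castrate Nkx cells, and 141 and 158 in Clu cells. The 2 Nkx intact libraries agreed closely and stood above the other 4, which overlapped. The means were 608 ± 13.0, 136 ± 55.6 and 150 ± 11.6 CPM (SD, n = 2), and Nkx castrate was 4.47-fold lower than Nkx intact (log2 fold change -2.16, SE 0.28, adjusted p = 0.00427).

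Col4a6 pairs with Col4a5 in the type IV network of some epithelial and smooth muscle basement membranes. Its level was 255 and 306 CPM in intact Nkx cells, 24.3 and 11.7 in castrate Nkx cells, and 106 and 54.4 in Clu cells. The 3 groups did not overlap, with Nkx intact highest and Nkx castrate lowest. The means were 280 ± 36.2, 18.0 ± 8.92 and 80.3 ± 36.6 CPM (SD, n = 2), and the castrate level was 15.5-fold lower than the intact (log2 fold change -3.95, SE 0.44, adjusted p = 0.00242). Col4a5, the partner whose mutation causes Alport syndrome, was at 64.8 and 77.3, 38.7 and 25.9, and 50 and 44.4 CPM. Its groups did not overlap either, but the spacing was smaller: Nkx castrate was 2.20-fold lower than Nkx intact (log2 fold change -1.14, SE 0.25, adjusted p = 0.0309). The ratio of Col4a6 to Col4a5 per kb was 3.31 and 3.33 in intact Nkx cells, 0.530 and 0.380 in castrate Nkx cells, and 1.79 and 1.03 in Clu cells, so Col4a5 was the higher of the pair per length in the castrate libraries only.

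Col7a1, the chain of the anchoring fibrils that fasten epithelium to the matrix, was at 155 and 152 CPM in intact Nkx cells, 52.8 and 13.2 in castrate Nkx cells, and 39.3 and 33.5 in Clu cells. Both intact Nkx libraries were above every other library, and the 2 castrate libraries lay on either side of the Clu ones. Nkx castrate was 4.64-fold lower than Nkx intact (log2 fold change -2.21, SE 0.53, adjusted p = 0.0424). Col16a1 was at 373 and 354 CPM in intact Nkx cells, 92 and 40.5 in castrate Nkx cells, and 61.2 and 108 in Clu cells. Its Nkx intact values were again above the other 4, with means of 364 ± 12.8, 66.3 ± 36.4 and 84.4 ± 32.8 CPM (SD, n = 2). The castrate level was 5.48-fold lower than the intact (log2 fold change -2.45, SE 0.41, adjusted p = 0.0107).

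The remaining basement membrane collagens were not called. Col4a1 and Col4a2, the chains of the type IV network found in nearly all basement membranes, were at 189 and 173 CPM and 139 and 120 CPM in Nkx intact. In castrate Nkx cells they were at 205 and 54.7 and at 122 and 40.5, and in Clu intact at 203 and 145 and at 112 and 70.5. For Col4a1 the castrate libraries lay on either side of the intact ones, and the log2 fold change was -0.48 (adjusted p = 0.634). Exons of the 2 genes overlap on opposite strands by 22 bp, 0.295% of the exon length of Col4a1, and the strand setting of the counting is not known. Col4a3 was at 38.0 and 39.6 CPM in intact Nkx cells, 23.7 and 8.80 in castrate Nkx cells, and 15.2 and 16.6 in Clu cells, and Col4a4 at 63.0 and 42.8, 29.6 and 11.2, and 32.7 and 37.7. These 2 chains, which join Col4a5 in a specialised network, had log2 fold changes of -1.25 (adjusted p = 0.121) and -1.37 (adjusted p = 0.100), with no overlap between Nkx castrate and Nkx intact. Exons of Col4a3 overlap those of C430014B12Rik on the opposite strand by 563 bp, 5.65% of its exon length. Col15a1, a vascular and muscle basement membrane collagen, was at 60.8 and 43.8, 50.1 and 2.74, and 61.8 and 43.6 CPM, so that Nkx castrate 2 was low and the other 5 libraries overlapped.

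No fibrillar collagen was called, with 0 of 8 also at an unadjusted p under 0.05 (edgeR). Col1a1 and Col1a2, the chains of type I collagen, were at 79.2 and 72.8 CPM and at 73.3 and 56.1 in Nkx intact. In castrate Nkx cells they were at 46.3 and 6.21 and at 46.0 and 2.81, and in Clu intact at 74.2 and 82.1 and at 69.0 and 78.8. Both castrate libraries were below the intact ones, Nkx castrate 2 by far the more, and the log2 fold changes were -1.52 (SE 0.70, adjusted p = 0.240) and -1.40 (SE 0.90, adjusted p = 0.401). Col3a1, which forms fibrils with type I, was at 87.2 and 66.3 CPM in intact Nkx cells, 45.3 and 4.95 in castrate Nkx cells, and 129 and 139 in Clu cells. Its groups did not overlap, and its castrate log2 fold change was -1.60 (SE 0.76, adjusted p = 0.251). Col5a1, a nucleator of type I fibrils, was at 21.6 and 21.4, 40.3 and 3.70, and 23.5 and 32.0 CPM, so Nkx castrate 1 was highest and Nkx castrate 2 lowest. The same held for Col5a3 (7.17 and 6.52, 7.91 and 0.444, 5.82 and 5.27 CPM) and Col11a2 (6.70 and 3.46, 8.31 and 1.48, 4.98 and 6.21 CPM).

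Among the others, Col23a1, a transmembrane collagen, was at 61.4 and 64.2 CPM in intact Nkx cells, 31.1 and 11 in castrate Nkx cells, and 19.7 and 22.9 in Clu cells. Both intact Nkx libraries were above the rest, and the castrate log2 fold change was -1.57 (SE 0.43, adjusted p = 0.0653). By DESeq2 and limma-voom Col23a1 was called lower (adjusted p = 0.00807 and 0.0399), as it was with Nkx castrate 1 or 2 left out (-2.51 and -1.02, adjusted p = 6.37e-05 and 0.0141). The type VI chains form beaded filaments in the stroma. Col6a1 was at 27.8 and 32.0, 83.5 and 11.5, and 42.9 and 45.6 CPM, Col6a2 at 42.9 and 38.9, 71.2 and 4.88, and 45.3 and 58.9, and Col6a3 at 16.8 and 14.8, 46.7 and 9.17, and 48.3 and 56.4. In each of these 3 genes the castrate libraries lay on either side of both Nkx intact libraries. The same was seen for Col12a1 (34.1 and 26.5, 51.8 and 14.9, 29.5 and 33.9 CPM) and Col14a1 (4.59 and 4.35, 18.4 and 1.18, 7.09 and 8.47 CPM), 2 fibril-associated collagens. Col6a4 was at 5.36 and 3.36, 9.43 and 4.58, and 9.03 and 11.6 CPM, and its Nkx groups overlapped. The other 8 tested collagens (Col6a6, Col8a2, Col9a2, Col9a3, Col10a1, Col13a1, Col19a1 and Col25a1) stayed under a mean of 5 CPM in every group and none was called in any comparison.

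The number of collagens called depended on single libraries. Without Nkx castrate 1, 22 collagens were lower and 0 higher, and without Nkx castrate 2, 8 were lower and 6 higher, where the lone library is assumed to vary like the other groups. In these fits 16.8% and 16.1% of all tested genes were called in either direction, against 8.61% with all libraries. Without Nkx intact 1 or 2 the 5 lower became 2 and 1, and without either Clu library 3. The calls over all genes moved too, to 1.91% and 1.4% without Nkx intact 1 or 2 and to 5.19% and 4.98% without Clu intact 1 or 2. Col4a6 was called in all 6 of these fits (log2 fold changes from -4.58 to -3.53), and Col18a1 lost its call only without Nkx intact 2 (adjusted p = 0.0528). Col16a1 was not called without Nkx intact 1 or 2 (adjusted p = 0.0766 and 0.0885). Col4a5 and Col7a1 were called only in the fits that left out a castrate library, with adjusted p from 0.0650 to 0.210 and from 0.0551 to 0.199 in the other 4. Leaving out Nkx castrate 1 or 2 gave log2 fold changes of -2.65 and -1.80 for Col18a1, -4.58 and -3.53 for Col4a6, -1.46 and -0.88 for Col4a5, -3.54 and -1.55 for Col7a1, and -3.16 and -1.99 for Col16a1, each still called. For Col1a1 they were -3.61 and -0.72 (adjusted p = 2.02e-06 and 0.0361) and for Col3a1 -3.95 and -0.77 (adjusted p = 1.86e-06 and 0.0350), lower either way. For Col6a1 the sign depended on the library, at -1.37 and 1.47 (adjusted p = 0.00429 and 0.000924). All 9 basement membrane collagens were called lower with Nkx castrate 1 left out and 4 with Nkx castrate 2 left out, and for the fibrillar class the numbers were 7 and 2.

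**Figure D2:**
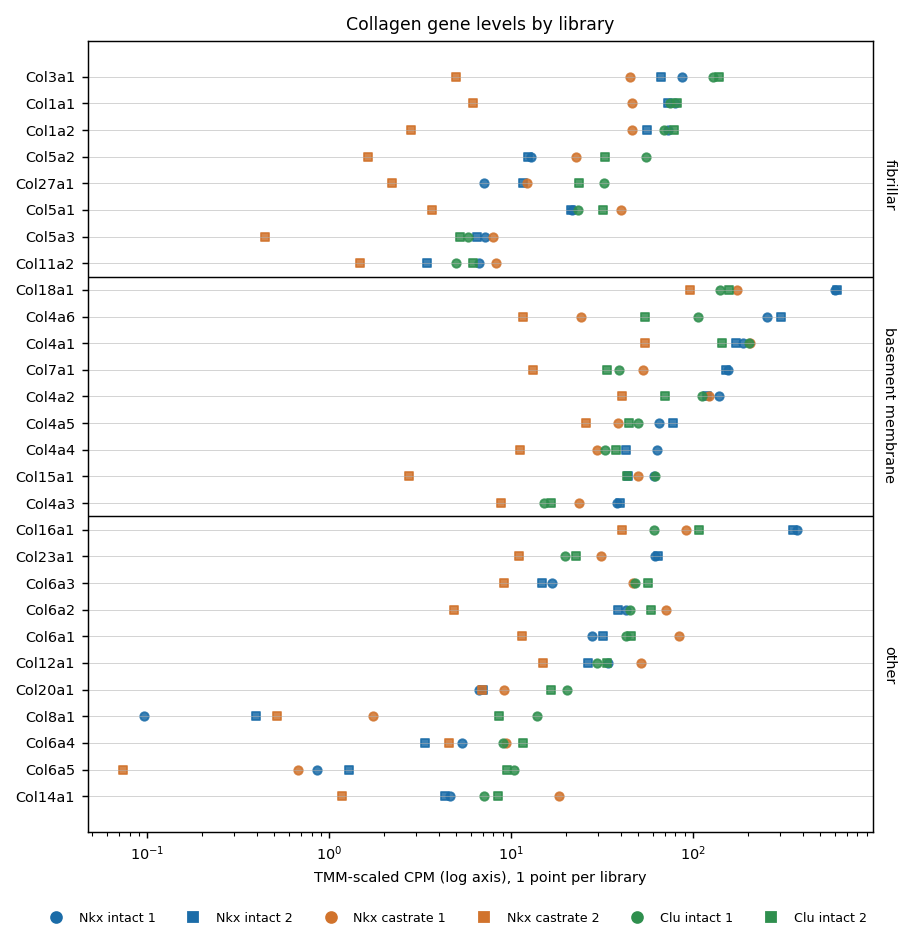
TMM-scaled CPM (horizontal log axis) of the 28 collagens with a mean of at least 5 CPM in a group, 1 point per library, with groups by colour and replicates by shape, in the 3 classes. Nkx castrate 2 (orange squares) lies to the left of the other libraries in all fibrillar and basement membrane genes, and the blue Nkx intact points of Col18a1, Col16a1, Col7a1 and Col4a6 lie to the right of all others.

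The comparison of Clu intact with Nkx intact set 2 marked populations of intact prostates side by side. Col8a1 and Col20a1 rose in the Clu-marked cells, and Col18a1, Col4a6, Col7a1 and Col16a1 fell. These are 5.56% of the tested collagens higher, against 6.29% of all tested genes, and 11.1% lower, against 5% of all genes. The higher share was thus near that of all genes. At an unadjusted p under 0.05, 6 collagens were higher and 7 lower, with the share of all genes again not counted. The median log2 fold change was 0.13 over the collagens, -0.59 over the basement membrane class, 0.28 over the fibrillar and 0.56 over the others, against -0.01 over all genes. Both Clu libraries lay below both Nkx intact ones in 11 of 36 collagens, near the 31.3% of all genes. These were 7 of 9 basement membrane, 1 of 8 fibrillar and 3 of 19 other collagens. Both Clu libraries lay above both Nkx intact ones in 14 of 36, against 31.9% of all genes. These were 0 of 9 basement membrane, 4 of 8 fibrillar and 10 of 19 other collagens. Since both comparisons use the Nkx intact libraries, the genes lower in both are not independent observations.

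From the values above, Col18a1 was 4.07-fold lower in Clu intact than in Nkx intact (log2 fold change -2.02, SE 0.28, adjusted p = 0.00412), and was called in all fits that left out a library. Col16a1 was 4.31-fold lower (log2 fold change -2.11, SE 0.40, adjusted p = 0.0150) and Col7a1 4.22-fold lower (log2 fold change -2.08, SE 0.53, adjusted p = 0.0439). Col4a6 was 3.49-fold lower (log2 fold change -1.80, SE 0.40, adjusted p = 0.0257). Its partner Col4a5 had a log2 fold change of -0.59 (adjusted p = 0.178), and Col4a3 one of -1.28 (adjusted p = 0.0984). The difference of Col23a1 was -1.56 (SE 0.43, adjusted p = 0.0566). Col23a1 and Col4a3 were called lower by DESeq2 (adjusted p = 0.00665 and 0.0413), but not by limma-voom. By edgeR with only the groups compared, both were called lower (adjusted p = 0.000261 and 0.00182). Some basal epithelial markers also differed between these groups, with 4 of 10 lower in Clu intact, Trp63 among them, against 5% of all tested genes. The other 6 were not called, among them Krt15 with a log2 fold change of 0.14. Endothelial markers went the other way, with 6 of 12 higher in Clu intact, against 6.29% of all tested genes. The part of either in the collagen differences was not tested.

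Col8a1, a short-chain network collagen of vessel walls and the cornea, was at 0.0957 and 0.395 CPM in intact Nkx cells, 1.74 and 0.517 in castrate Nkx cells, and 13.8 and 8.56 in Clu cells. The Clu libraries stood far above the rest, while Nkx intact held only 1 and 4 counts, so the size of the fold change rests on few reads: 44.1-fold higher (log2 fold change 5.46, SE 0.96, adjusted p = 0.0113). Col8a1 passed the filter on low counts through the group where it was high. The ratio to its partner Col8a2 per kb was 2.35 and 2.61 in Clu intact and between 0.0119 and 0.309 in the 4 Nkx libraries. Col20a1, a fibril-associated collagen, was at 6.70 and 7.01 CPM in intact Nkx cells, 9.09 and 6.95 in castrate Nkx cells, and 20.2 and 16.6 in Clu cells. Both Clu libraries were above the other 4, which overlapped, and the level was 2.68-fold that of Nkx intact (log2 fold change 1.42, SE 0.35, adjusted p = 0.0380).

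Fibrillar collagens showed no call in this comparison with all libraries fitted. At an unadjusted p under 0.05 (edgeR), 1 of 8 was higher and 0 lower. With only the groups compared, which leaves out the castrate libraries, edgeR called 3 higher. These were Col3a1, Col5a2 and Col27a1 (adjusted p = 0.00675, 0.0012 and 0.00531). That fit called 25.1% of all tested genes in either direction, against 11.3% with all libraries. Col5a2, the partner of Col5a1, was at 12.8 and 12.4 CPM in intact Nkx cells, 22.8 and 1.63 in castrate Nkx cells, and 55.3 and 32.9 in Clu cells. Col27a1, a cartilage and developmental fibrillar collagen, was at 7.08 and 11.7, 12.3 and 2.22, and 32.5 and 23.5 CPM. In both genes the Clu libraries were the highest of the 6, with log2 fold changes of 1.80 (adjusted p = 0.249) and 1.58 (adjusted p = 0.190) against Nkx intact. Against Nkx intact the log2 fold change of Col1a1 was 0.04 (SE 0.68, adjusted p = 0.982) and that of Col3a1 0.80 (SE 0.74, adjusted p = 0.547). The ratio of Col5a1 to Col5a2 per kb was 0.479 and 1.10 in Clu intact and between 1.91 and 2.57 in the Nkx libraries. Col6a3 had a log2 fold change of 1.73 (SE 0.62, adjusted p = 0.125). It was called higher by DESeq2 (adjusted p = 0.0322) and by edgeR with only the groups compared (adjusted p = 0.00027), but not by limma-voom. The ratio of Col6a3 to Col6a1 per kb was 0.412 and 0.453 in Clu intact and 0.170 to 0.291 elsewhere.

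Without Nkx intact 1 or 2, 0 collagens were higher and 1 lower, and without Clu intact 1 or 2, 0 and 1 were higher and 2 lower. Without either castrate library, which leaves the means compared as they were but changes the shared spread, 7 and 8 were higher and 7 lower. Over all tested genes, 2.7% and 2.62% were called without Nkx intact 1 or 2, 3.85% and 3.29% without Clu intact 1 or 2, and 23.4% and 21.9% without Nkx castrate 1 or 2, against 11.3% with all libraries, so the collagen counts moved in the direction of the counts over all genes. Col16a1 lost its call without Nkx intact 1 or 2 or Clu intact 1 (adjusted p = 0.100, 0.0937 and 0.0902), and Col4a6 without Nkx intact 1 or 2 or Clu intact 2 (adjusted p = 0.116, 0.162 and 0.149). Col7a1 and Col20a1 lost theirs without any 1 of the 4 libraries compared (adjusted p from 0.153 to 0.224 and from 0.162 to 0.259). Col8a1 lost its call without Nkx intact 1 or 2 or Clu intact 1 (adjusted p = 0.0925, 0.0625 and 0.0997).

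**Figure D3:**
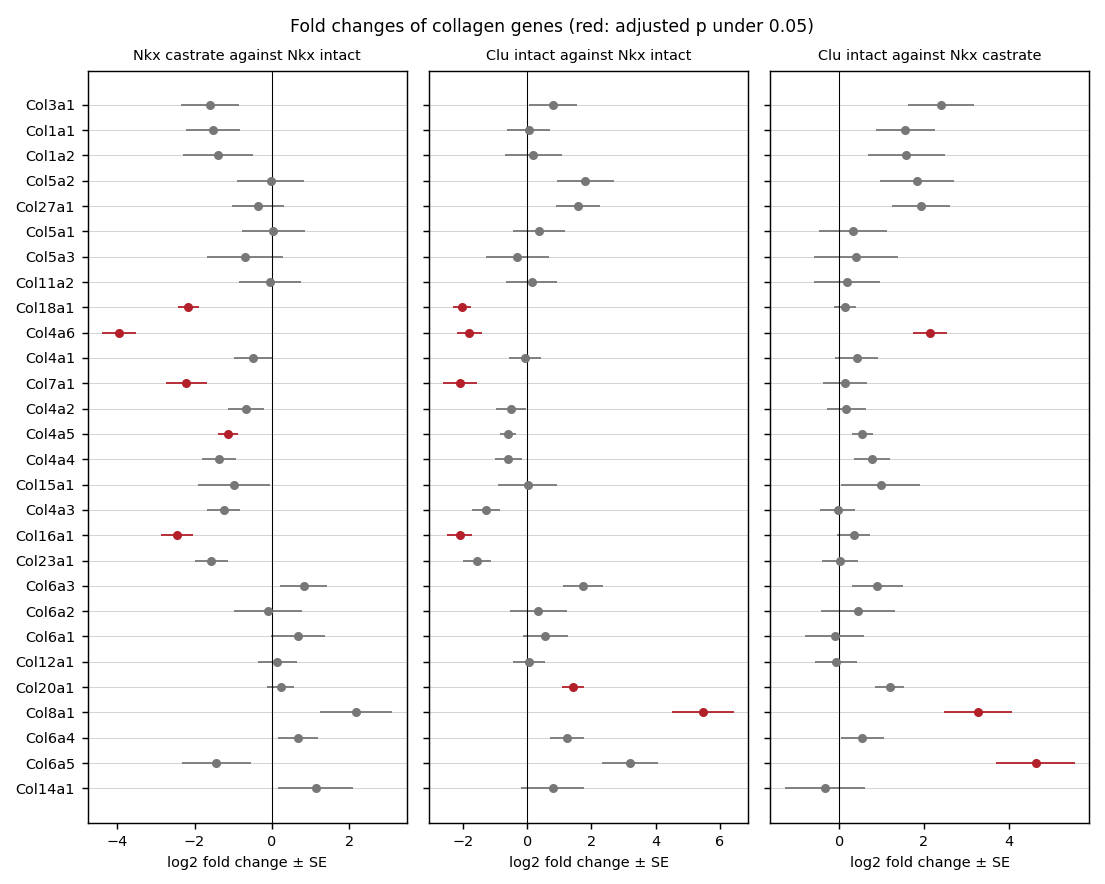
Log2 fold change with its SE (horizontal axes, which differ in range) of 28 collagens in the 3 comparisons, in red where the adjusted p of edgeR's quasi-likelihood test was under 0.05. Col18a1, Col4a6, Col7a1 and Col16a1 are red and left of 0 in both comparisons with Nkx intact, and the bars of most fibrillar genes in the comparisons with Nkx castrate are long.

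Clu intact set against Nkx castrate asked how the Clu-marked cells of intact glands compare with the Nkx-marked cells left after castration. Col4a6, Col8a1 and Col6a5 were higher in Clu intact and no collagen was lower, which is 8.33% of the tested collagens against 8.82% of all tested genes called higher and 8.1% lower. The share was near that of all genes. At an unadjusted p under 0.05, 6 were higher and 0 lower, with the share of all genes again not counted. The median log2 fold change was 0.43 over the collagens, 1.58 over the fibrillar class, 0.42 over the basement membrane class and 0.35 over the others, against -0.00 over all genes. Both Clu libraries were above both castrate ones in 13 of 36 collagens, against 31.5% of all genes. These were 5 of 8 fibrillar, 3 of 9 basement membrane and 5 of 19 other collagens. The reverse held in 1 of 36 collagens, against 30% of all genes.

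Col4a6 was 4.44-fold higher in Clu intact than in Nkx castrate (log2 fold change 2.15, SE 0.41, adjusted p = 0.0108), a call made in all 6 fits that left out a library, with log2 fold changes from 1.61 to 2.78. Col8a1 was 9.72-fold higher (log2 fold change 3.28, SE 0.81, adjusted p = 0.0294). Col6a5, a type VI chain, was at 0.861 and 1.28 CPM in intact Nkx cells, 0.673 and 0.0739 in castrate Nkx cells, and 10.4 and 9.50 in Clu cells. Its Clu libraries were far above the other 4, and the castrate libraries held 12 and 1 counts, so the fold of 25.0 rests on few reads and, like Col8a1, Col6a5 passed the filter on low counts through the Clu libraries (log2 fold change 4.64, SE 0.93, adjusted p = 0.0130). Against Nkx intact, the log2 fold change of Col6a5 was 3.20 (SE 0.86, adjusted p = 0.0531). There it was called higher by DESeq2 (adjusted p = 0.00255) and by edgeR with only the groups compared (adjusted p = 0.0016), but not by limma-voom. Col3a1 had a log2 fold change of 2.40 (SE 0.77, adjusted p = 0.0704) against Nkx castrate, Col27a1 of 1.94 (adjusted p = 0.0926) and Col1a1 of 1.57 (adjusted p = 0.167). Col18a1, Col7a1 and Col16a1 differed by 0.14, 0.14 and 0.35 (adjusted p = 0.768, 0.890 and 0.584).

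Without Nkx castrate 1, 25 collagens were higher in Clu intact, and without Nkx castrate 2, 7 were higher and 1 lower. For the fibrillar class the higher genes were 7 and 4 of 8. Of all tested genes, 24.1% and 26% were called in these fits, against 16.9% with all libraries and 6.64% and 4.57% without Clu intact 1 or 2. Without Clu intact 1 or 2, 1 collagen was higher, as Col8a1 (adjusted p = 0.232 and 0.11) and Col6a5 (adjusted p = 0.0819 and 0.0843) lost their calls. The log2 fold changes moved with the castrate library kept: for Col8a1 they were 4.41 with Nkx castrate 1 left out and 2.69 with Nkx castrate 2 left out, for Col6a5 6.87 and 3.87, and for Col4a6 2.78 and 1.73. For Col3a1, not called with all libraries, they were 4.76 and 1.58 (adjusted p = 3.82e-07 and 0.000458).

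The ratios between chains that assemble together varied less than the levels in some pairs. Col4a1 over Col4a2 per kb lay between 1.20 and 1.82 in all 6 libraries, and Col1a1 over Col1a2 between 1.90 and 2.46 in 5 libraries, with 4.19 in Nkx castrate 2, where Col1a2 was at 2.81 CPM. Col4a4 over Col4a3 was 1.56 and 1.01 in intact Nkx cells, 1.17 and 1.20 in castrate Nkx cells, and 2.02 and 2.13 in Clu cells. Col6a1 over Col6a2 was 1.23 and 1.56, 2.23 and 4.49, and 1.80 and 1.47. These ratios are descriptions with no test.

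**Figure D4:**
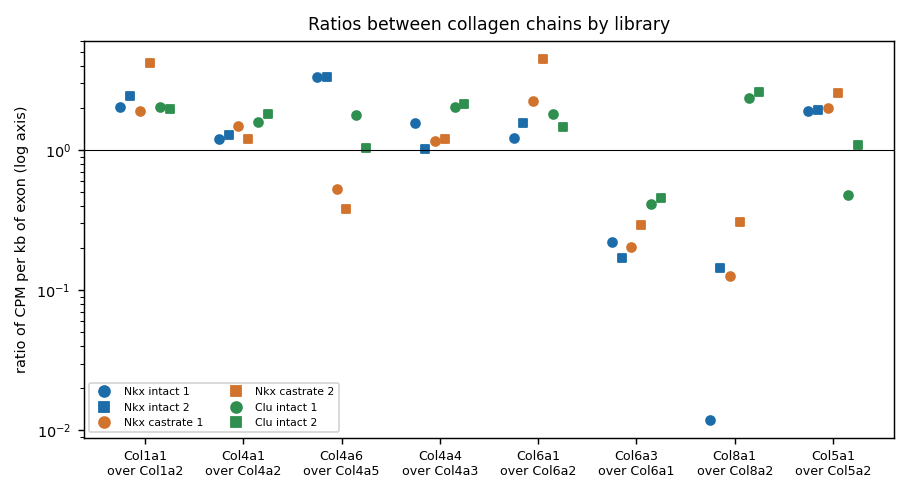
Ratio of CPM per kb of exon (vertical log axis) between 8 pairs of collagen chains, 1 point per library. Col4a6 over Col4a5 separates the Nkx intact libraries (3.31 and 3.33) from Nkx castrate (0.530 and 0.380), and Col8a1 over Col8a2 is above 1 in both Clu intact libraries and no other.

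The machinery around collagen was read from 5 further lists. Of the 33 tested genes that modify, fold, export or crosslink collagen, 0 rose and 4 fell in Nkx castrate against Nkx intact, 0 rose and 1 fell in Clu intact against Nkx intact, and 4 rose and 2 fell in Clu intact against Nkx castrate. The shares that fell were 12.1%, 3.03% and 6.06% in that order, against 4.59%, 5% and 8.1% of all tested genes, and 12.1% rose in the last comparison, against 8.82%. Mia3, which loads procollagen into transport vesicles, was at 455 and 508 CPM in intact Nkx cells, 196 and 248 in castrate Nkx cells, and 685 and 813 in Clu cells. Its groups did not overlap, with log2 fold changes of -1.12 (adjusted p = 0.0133) in Nkx castrate against Nkx intact and 1.75 (adjusted p = 0.00146) in Clu intact against Nkx castrate. P4hb, a subunit of prolyl 4-hydroxylase and a disulfide isomerase, was at 1218 and 1504, 480 and 660, and 1336 and 1667 CPM (-1.25, adjusted p = 0.0165, and 1.40, adjusted p = 0.00672, in the same comparisons). Sec24d, a vesicle coat protein, was at 154 and 164, 58.3 and 57.4, and 106 and 109 CPM, with a castrate log2 fold change of -1.46 (adjusted p = 0.00242). For these 3 genes both castrate libraries were low and close to each other, unlike for most collagens. They were named because they were called, and a call favours genes whose libraries agree, so their closeness does not describe the list. Among its uncalled genes, Serpinh1 and Plod1 were far higher in Nkx castrate 1 than in Nkx castrate 2, as most collagens were. Mia2 and Sec23a were higher in Nkx castrate 2. Bmp1, the proteinase that trims the procollagen end, was at 49.7 and 51.0, 39.9 and 28.2, and 18.0 and 17.4 CPM, lowest in both Clu libraries (log2 fold change against Nkx intact -1.51, adjusted p = 0.00776).

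Of 15 tested laminins and other basement membrane proteins, 0 rose and 4 fell in Nkx castrate against Nkx intact, 1 rose and 3 fell in Clu intact against Nkx intact, and 2 rose in Clu intact against Nkx castrate. The shares that fell in the first 2 comparisons were 26.7% and 20%, against 4.59% and 5% of all tested genes, and 6.67% and 13.3% rose in the last 2, against 6.29% and 8.82%. Lamb3, a chain of the laminin that anchors epithelium together with type VII collagen and also a gene of the basal marker list, was at 235 and 215 CPM in intact Nkx cells, 86.2 and 51.5 in castrate Nkx cells, and 51.2 and 66.1 in Clu cells. Its Nkx intact libraries were above the other 4 (log2 fold changes -1.71, adjusted p = 0.00867, and -1.94, adjusted p = 0.00444). Lama1 was at 41.4 and 36.9, 9.20 and 1.63, and 5.23 and 5.46 CPM, with the same order (-2.84, adjusted p = 0.0383, and -2.87, adjusted p = 0.0311). Agrn, a heparan sulfate proteoglycan, was at 448 and 380, 151 and 108, and 299 and 345 CPM, lowest in Nkx castrate (-1.67, adjusted p = 0.00434, against Nkx intact). Lamb2 was at 161 and 170, 155 and 103, and 390 and 390 CPM, highest in Clu intact (1.24, adjusted p = 0.0106, against Nkx intact).

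Of 15 tested proteins that bind or accompany fibrils, 1 rose and 1 fell in Nkx castrate against Nkx intact, 2 rose and 2 fell in Clu intact against Nkx intact, and 0 rose and 2 fell in Clu intact against Nkx castrate. With 15 genes, 1 gene is 6.67% and 2 are 13.3%, against 4.02% to 8.82% of all tested genes called in a direction in these comparisons. Fmod, fibromodulin, which binds type I fibrils, was at 272 and 292 CPM in intact Nkx cells, 59.4 and 79.2 in castrate Nkx cells, and 12.5 and 4.52 in Clu cells. Its 3 groups did not overlap (log2 fold changes -2.02, adjusted p = 0.0174, in Nkx castrate and -5.04, adjusted p = 0.000749, in Clu intact, both against Nkx intact). Lum, lumican, a related proteoglycan and a fibroblast marker, was at 0.765 and 0.593, 35.0 and 2.22, and 5.74 and 4.52 CPM, and Nkx castrate 1 alone was high (4.76, adjusted p = 0.0495, and 1.69, adjusted p = 0.194, without that library). Fbln2 and Eln, an elastic fibre protein and elastin, were at 16.3 and 19.8, 45.2 and 4.58, and 238 and 122 CPM and at 6.50 and 2.17, 14.6 and 1.63, and 65.5 and 42.5 CPM. Both were highest in the Clu libraries (3.32, adjusted p = 0.0476, and 3.63, adjusted p = 0.0432, against Nkx intact).

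Of 10 tested collagen receptors, 1 rose in Nkx castrate against Nkx intact, 0 were called in Clu intact against Nkx intact, and 1 rose in Clu intact against Nkx castrate. A single gene is 10% of this list, and 4.02%, 6.29% and 8.82% of all tested genes rose in the 3 comparisons, so these counts are near the background. Itga2, the integrin chain that binds collagen on epithelium and platelets, was at 6.31 and 6.12 CPM in intact Nkx cells, 31.5 and 18.9 in castrate Nkx cells, and 12.5 and 9.69 in Clu cells. Both castrate libraries were the highest, in contrast to the collagens (log2 fold change 2.02, adjusted p = 0.0154). Ddr1, a receptor kinase for collagen, was at 174 and 174, 132 and 137, and 190 and 218 CPM (0.60, adjusted p = 0.0395, in Clu intact against Nkx castrate). Of 8 tested genes of collagen breakdown, 0 were called in Nkx castrate against Nkx intact and 1, Timp2, rose in each of the other comparisons, 12.5% of the list. This inhibitor of matrix proteinases was at 162 and 153 CPM in intact Nkx cells, 235 and 132 in castrate Nkx cells, and 498 and 531 in Clu cells, highest in both Clu libraries (1.71, adjusted p = 0.00721, against Nkx intact).

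These calls also depended on single libraries. In Nkx castrate against Nkx intact, 17 maturation and 11 basement membrane protein genes were lower without Nkx castrate 1, and 1 and 0 without Nkx intact 1, in fits that called 16.8% and 1.91% of all tested genes. Of the genes named, Sec24d in that comparison, Mia3 in Clu intact against Nkx castrate and Fmod in Clu intact against Nkx intact were called in all 6 fits without a library. In Nkx castrate against Nkx intact, P4hb, Mia3, Itga2, Lamb3 and Fmod lost their calls without Nkx intact 1 or 2 (adjusted p from 0.0755 to 0.162), and Agrn without Nkx intact 1 (adjusted p = 0.0502). Lama1 and Lum were not called there without either Nkx intact or either Clu library (adjusted p from 0.0524 to 0.312). In Clu intact against Nkx intact, Bmp1, Lama1, Lamb2, Fbln2 and Eln lost their calls without any 1 of the 4 libraries compared (adjusted p from 0.0570 to 0.279), Timp2 without Nkx intact 1 or 2 (adjusted p = 0.0789 and 0.0904) and Lamb3 without Nkx intact 1 (adjusted p = 0.0501). In Clu intact against Nkx castrate, P4hb and Timp2 lost their calls without Clu intact 2 (adjusted p = 0.0525 and 0.0529), and Ddr1 without any Nkx intact or Clu intact library (adjusted p from 0.0877 to 0.316).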

How the data were processed

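The table that the authors deposited holds raw counts, 1 row per gene symbol and 1 column for each of 6 libraries, and the values were checked to be whole numbers. Per the labels' protocols, sorted cells went into lysis buffer and total RNA entered a stranded low-input kit. The submitters' processing notes name the build GRCm39 and the tools STAR 2.7.9a, FastQC 0.11.9, featureCounts and Subread 2.0.1, with no role or order. Not given in the sources used here were the annotation release, strand setting and handling of multiply aligned reads, so reads of overlapping genes on opposite strands may not be told apart.

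In R 4.3.3, counts were filtered with filterByExpr of edgeR 4.0.16 (13846 genes kept of 24498), scaled by TMM, and fitted by glmQLFit with a mean for each of the 3 groups over all 6 libraries (3 residual degrees of freedom). For each comparison glmQLFTest was run two-sided, and genes were called at a p under 0.05 after Benjamini-Hochberg adjustment over all tested genes. CPM means have the SD over 2 libraries. CPM per kb used union exon lengths of GENCODE M21, made on the GRCm38 build. The labels tie no replicate numbers together, so the main design has no block. Alternatives were other scalings, filters and tools (DESeq2 1.42.0, limma-voom from limma 3.58.1), only the groups compared, a 2-fold minimum, a replicate block, and omission of each library in turn. The fit was tested on simulated data for Nkx castrate against Nkx intact. Changes were placed only in genes with a mean of at least 5 CPM. All libraries were drawn with the spread usual for genes of that level. The fit called 83.2% of 4-fold and 28.8% of 2-fold changes, so a missing call does not show that a gene was unchanged. Between the castrate libraries the collagens had a median ratio of 4.55, against 0.972 over all tested genes. The simulation did not include that difference, so its rates do not measure how often changed collagens are called. The members, gene lists and rules were chosen with earlier results of these data known. Full values are given for tested collagens with a mean of at least 5 CPM in a group, and for up to 4 called genes of each of 5 further lists by largest change.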

Additional observations from a re-analysis of the deposited data

How the results depend on the processing

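With groups of 2, each call rests on few libraries, and depth limits genes with few counts, such as Col8a1 and Col6a5. Without the low-count filter, the collagens called in Nkx castrate against Nkx intact were 1 higher and 13 lower, and with only the groups compared 3 were lower, where 0 and 5 were reported. Calls over all tested genes were 11.6% and 4.98% in these fits, against 8.61%. In Clu intact against Nkx intact, with 2 higher and 4 lower reported, 7 were higher without the filter, 4 by DESeq2, 0 by limma-voom and 7 with only the groups compared, and 7 were lower with only the groups compared. Calls over all genes were 13.4%, 17.7%, 8.8% and 25.1% in these fits, against 11.3%. In Clu intact against Nkx castrate, with 3 higher reported, 12 were higher without the filter, 5 by DESeq2 and 6 by limma-voom, with 17.7%, 24.3% and 16.8% of all genes called, against 16.9%. The cause of these differences was not tested. The fits without the filter or with only the groups compared also differed in their number of genes or samples.

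Leaving out each library gave, in Nkx castrate against Nkx intact, 0 to 6 collagens higher and 1 to 22 lower, in Clu intact against Nkx intact 0 to 8 higher and 1 to 7 lower, and in Clu intact against Nkx castrate 1 to 25 higher and 0 to 1 lower. With library totals in place of TMM, the summed CPM of fibrillar collagens in Clu intact was 407 in place of 397, and that of basement membrane collagens in Nkx intact 1554 in place of 1568. With type IV chains alone as the basement membrane class, 2 of its members were lower in Nkx castrate against Nkx intact.

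Of the 14 calls on collagens, the settings that kept all libraries ended those of Col4a5 (only the groups compared, adjusted p = 0.0727) and Col7a1 (adjusted p = 0.0583 with upper-quartile factors and 0.0810 with only the groups compared) in Nkx castrate against Nkx intact. In Clu intact against Nkx intact they ended those of Col7a1 (upper-quartile factors, adjusted p = 0.0542), Col20a1 (limma-voom, 0.0529) and Col8a1 (limma-voom, 0.0676).

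In Nkx castrate against Nkx intact, log2 fold changes changed sign with 1 castrate library left out, and ranged over the fits without a library from -1.02 to 0.77 for Col12a1, from -1.91 to 2.03 for Col14a1, from -2.54 to 0.90 for Col5a1, from -1.37 to 1.47 for Col6a1, from -3.06 to 0.79 for Col6a2 and from -0.79 to 1.55 for Col6a3. In Clu intact against Nkx castrate, log2 fold changes changed sign with 1 castrate library left out, and ranged over the fits without a library from -0.70 to 1.09 for Col12a1, from -1.23 to 2.71 for Col14a1 and from -0.91 to 1.94 for Col6a1. For 35 of the 84 pairs of gene and comparison followed, the log2 fold change was smaller than its SE, and a change of its sign was counted only where the alternative made a call.

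With the replicate number as a block, 7 collagens were lower in Nkx castrate against Nkx intact, 2 higher and 5 lower in Clu intact against Nkx intact, and 5 higher in Clu intact against Nkx castrate, with 10.9%, 14.2% and 20.1% of all genes called. Without the block, 8.61%, 11.3% and 16.9% of all genes were called. Deviations of libraries with the same number correlated at 0.09, 0.04 and 0.24 (Nkx intact with Nkx castrate, Nkx intact with Clu intact, and Nkx castrate with Clu intact). These values cannot show whether libraries with the same number share a batch, which was not tested.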
